A study of Homo sapiens with 12 samples.

Results

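The p53 transcriptional program was followed through 32 genes listed as p53 pathway genes, of 54127 genes in the count tables and 14501 that passed an expression filter. The list was made by gene symbol and mapped to Ensembl identifiers, and all 32 genes passed the filter. Samples were C4-2 cells, a castration-resistant derivative of the human prostate cancer line LNCaP, grown in RPMI medium with 10% serum and reverse transfected with 50 nM of an siRNA pool. In 6 samples the pool was directed against CHKA, which encodes choline kinase alpha, the first enzyme of phosphatidylcholine synthesis in the Kennedy pathway (labelled SiCHKA, written siCHKA here). In the 6 control samples a nontargeting siRNA was used (labelled SiNTCONTROL, written siNT here). The series was made to learn how CHKA regulates the transcriptome, and RNA was described as coming from sorted cells. A single line and a single targeting pool were used, so loss of CHKA and any other effect of that pool cannot be told apart. The study's text speaks of 6 biological replicates in one place and of biological triplicates in another. The sample descriptions do not say whether the 6 samples of a group were separate cultures, so p-values measure the spread between these samples, part of which may be technical.

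p53 is a transcription factor that is stabilized by DNA damage and other stresses, binds a pair of half-sites in DNA and switches on genes for cell cycle arrest, cell death and DNA repair. MDM2, an E3 ubiquitin ligase, and its relative MDM4 hold p53 in check, and because p53 activates MDM2 the pair forms a negative feedback loop. Many cell cycle genes fall when p53 is active, mostly indirectly, through CDKN1A (p21) and the repressive DREAM complex. LNCaP cells are known to retain wild-type p53. The transcript of p53 itself was not analysed here.

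Promoter sequence is shown for the targets in which a p53 response element lay close to an annotated start, because these are the genes where the binding sequence can be set beside the measured change. The sequences are from RefSeq (GRCh38.p14), from 250 bases before to 50 bases after a start site, and a promoter was found for 26 of the 32 genes. A match to the p53 response element, searched on both strands as 2 decamer half-sites with a spacer of 0 to 13 bases and at most 2 mismatches to the consensus, was present in 5 of these 26 and in 989 of the 27305 genes with a promoter (3.62%). The core C and G of each half-site had to match. Every start that the table gives for a gene was searched, and the starts used for these 5 genes lie inside the annotated gene. Sites outside these windows were not searched, and a match is a description of the letters only. Capitals mark the half-sites.
DDB2, chr11:47214724-47215023, plus strand: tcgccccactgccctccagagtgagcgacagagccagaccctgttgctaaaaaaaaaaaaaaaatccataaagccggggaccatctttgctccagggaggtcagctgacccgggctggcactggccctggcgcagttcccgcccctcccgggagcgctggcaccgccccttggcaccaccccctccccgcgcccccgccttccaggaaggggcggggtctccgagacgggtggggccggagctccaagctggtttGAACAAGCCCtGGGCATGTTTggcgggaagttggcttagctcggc
MDM2, chr12:68808767-68809066, plus strand: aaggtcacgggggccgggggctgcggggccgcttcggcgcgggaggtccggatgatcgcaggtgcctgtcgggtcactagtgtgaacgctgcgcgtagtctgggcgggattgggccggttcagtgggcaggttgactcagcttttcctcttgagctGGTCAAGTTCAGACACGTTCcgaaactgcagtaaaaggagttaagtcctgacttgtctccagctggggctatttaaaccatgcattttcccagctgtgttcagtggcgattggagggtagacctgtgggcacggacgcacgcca
AEN, chr15:88621090-88621389, plus strand: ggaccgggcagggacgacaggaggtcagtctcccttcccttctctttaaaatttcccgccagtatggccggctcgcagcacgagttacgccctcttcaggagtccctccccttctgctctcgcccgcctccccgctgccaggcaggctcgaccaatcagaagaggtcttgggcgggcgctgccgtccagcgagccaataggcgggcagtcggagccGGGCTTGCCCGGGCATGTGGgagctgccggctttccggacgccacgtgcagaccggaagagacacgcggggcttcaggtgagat
FAS, site at chr10:88991309-88991328, plus strand: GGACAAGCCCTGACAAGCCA
FDXR, site at chr17:74872996-74873025, minus strand: GGGCGGGCCCgggcaggagcGGGCTTGCCC

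The DDB2 site began at base 6, with the start counted as the first base, and had 0 mismatches, which held for 10 of the 27305 genes (0.0366%). The MDM2 site ended 75 bases before its start, and the sites of AEN, FAS and FDXR ended 15, 103 and 2 bases before their starts. Each of these 4 had 2 mismatches. The 5 genes did not share a direction after siCHKA: DDB2 and AEN fell, FDXR rose, and MDM2 and FAS did not pass the test.

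The depth was 12158361 to 20670479 counts on genes in the siCHKA samples and 10685184 to 24246055 in the siNT samples, so that 3 counts corresponded to 0.124 to 0.281 CPM. CPM values are counts relative to library size on the usual CPM scale, after TMM normalization, and changes are log2 fold changes of siCHKA against siNT from edgeR's quasi-likelihood test with Benjamini-Hochberg adjustment over all 14501 genes. CHKA was at 2.75 ± 1.03 CPM after siCHKA and 40.7 ± 2.55 CPM after siNT (SD, n = 6 each), a log2 fold change of -3.88. All 11 markers of prostate luminal epithelium were above 1 CPM in every sample. Of the 4 fibroblast markers only COL1A1 was above 1 CPM in every sample (at most 30.0 CPM), and their sum was 23.9 to 30.1 CPM after siCHKA and 11.4 to 18.3 CPM after siNT. The sums of 4 leukocyte markers were 3.98 to 5.97 and 2.65 to 3.94 CPM, of 2 endothelial markers 1.13 to 1.86 and 2.05 to 3.65 CPM, and of 2 basal markers 1.57 to 2.10 and 0.98 to 1.46 CPM. Reads assigned to no gene made up 6.70% to 8.54% of siCHKA and 5.49% to 6.63% of siNT alignments, with reads of several alignments left out. The latter made up 27.6% to 30.6% of all siCHKA and 26.1% to 29.7% of all siNT alignments. The part of these differences in the results was not tested.

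The siCHKA samples fell into a pair of sets, replicates 1, 3 and 5 and replicates 2, 4 and 6. Of all tested genes, 24.6% were higher in each of replicates 1, 3 and 5 than in any of 2, 4 and 6, and 22.9% were lower. Of the 32 p53 genes, 11 were higher in this way and 4 were lower. The sets are seen in the data and are named by no label, so the difference between them was described and not tested. Results are given with and without each set. A p-value from 1 set alone leaves out the spread between the sets and is not adjusted for trying both. Such p-values can be too small, and calls from 1 set are given as description only. The siNT samples were not searched for sets over all genes, and they were not uniform. In GDF15 and PRKDC every one of siNT replicates 1 to 3 was below replicates 4 to 6, whereas in MDM2 these replicates overlapped. The part of such differences in the fold changes was not tested.

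The p53 genes did not move as a block after CHKA knockdown. Of the 32, 10 rose, 10 fell and 12 did not pass the test, where 32.1% of all tested genes rose and 30.1% fell. The shares of the list were therefore near those of the transcriptome. The median log2 fold change was 0.06 for the list and 0.035 for all tested genes, and the members ranged from -1.23 for PMAIP1 to 0.80 for PLK2 and TP53I3. At least a 1.5-fold change was passed by 3 genes that rose (PLK2, TP53I3 and SESN1) and 4 that fell (PMAIP1, ZMAT3, SUSD6 and DDB2), against 13.4% and 11.3% of all genes. The CPM ranges of the 2 groups did not overlap for 13 of the 32 genes and for 40.6% of all genes.

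**Figure D1:**
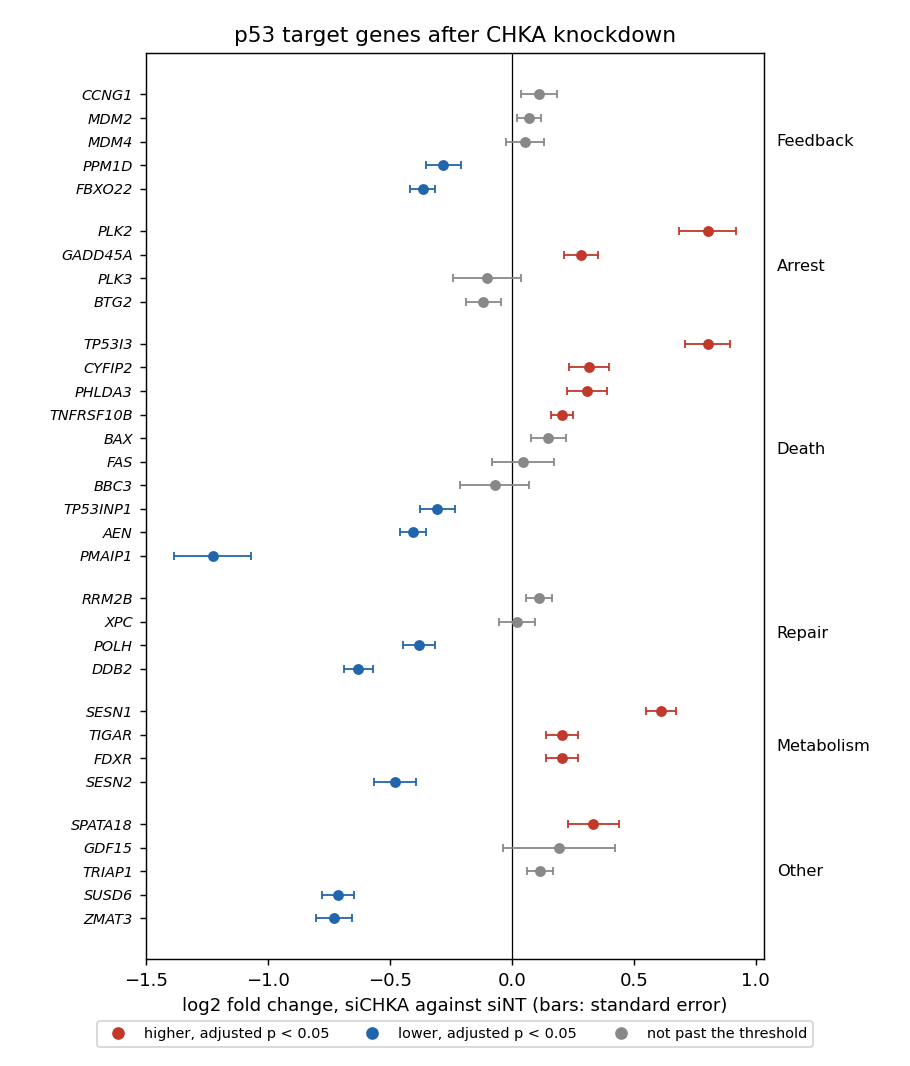
Log2 fold change of each of the 32 p53 genes (horizontal axis, siCHKA against siNT), grouped by role, with bars for the standard error. Red points rose, blue points fell and grey points did not pass adjusted p < 0.05; feedback and repair hold no red point and arrest no blue point, and PMAIP1 lies furthest from 0 at -1.23.

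Of the 5 feedback genes 2 fell and none rose in the fit of all samples, where 30.1% of all tested genes fell and 32.1% rose. The role groups are small, so their counts are given as description. MDM2 was at 195 to 216 CPM with a median of 207 after siNT and at 203 to 233 CPM with a median of 211 after siCHKA. The groups overlapped (log2 fold change 0.07, SE 0.05, adjusted p = 0.228). With siCHKA replicates 1, 3 and 5 alone the change was 0.14 (adjusted p = 0.0465), and with replicates 2, 4 and 6 alone it was -0.0037 (adjusted p = 0.956). CCNG1, a cyclin that recruits a phosphatase to MDM2, was at 304.5 to 393 CPM (median 351) after siNT and 346 to 429 CPM (median 359) after siCHKA, and did not pass the test (0.11, SE 0.07, adjusted p = 0.201). CCNG1 was also called higher with siCHKA replicates 1, 3 and 5 alone (0.20, adjusted p = 0.0438) and not with replicates 2, 4 and 6 alone (adjusted p = 0.937). MDM4 was likewise not called (0.05, SE 0.08). FBXO22, a ubiquitin ligase subunit, was at 53.2 to 63.7 CPM (median 61.1) after siNT and 45.2 to 47.9 CPM (median 45.8) after siCHKA, so that every siCHKA sample lay below every siNT sample (-0.37, SE 0.05, adjusted p = 9.69e-06). PPM1D, the phosphatase WIP1 that switches off p53 and the kinases above it, was at 28.4 to 34.5 CPM (median 31.4) and 21.4 to 28.7 CPM (median 26.2), with a slight overlap (-0.28, SE 0.07, adjusted p = 0.00267). It did not pass the test with siCHKA replicates 1, 3 and 5 alone (-0.17, adjusted p = 0.0526).

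Of the 4 arrest genes 2 rose and none fell, against 32.1% and 30.1% of all tested genes. PLK2, a polo-like kinase induced by p53, had the lowest level of the list per length of transcript in siNT cells (1.30 ± 0.13 RPKM, which is CPM per kilobase; SD, n = 6). Its values were 3.11 to 4.07 CPM (median 3.61) after siNT and 4.52 to 7.30 CPM (median 6.42) after siCHKA, and the groups did not overlap (0.80, SE 0.12, adjusted p = 1.46e-05). GADD45A, a stress sensor that inhibits the mitotic kinase CDK1, was at 9.39 to 11.8 CPM (median 10.4) and 12.4 to 13.6 CPM (median 12.8), again without overlap (0.28, SE 0.07, adjusted p = 0.00213). BTG2, an antiproliferative gene, was not called (-0.12, SE 0.07, adjusted p = 0.161), and with siCHKA replicates 2, 4 and 6 alone it was lower (-0.25, adjusted p = 0.00314). PLK3 was not called at 3.55 to 5.47 CPM after siCHKA and 3.53 to 5.44 CPM after siNT. The main arrest target CDKN1A, kept outside the 32 genes, rose from 48.9 ± 3.00 to 85.9 ± 18.4 CPM (SD, n = 6 each; log2 fold change 0.81, adjusted p = 6.53e-06), with means of 101.6 CPM in siCHKA replicates 1, 3 and 5 and 70.3 CPM in replicates 2, 4 and 6.

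**Figure D2:**
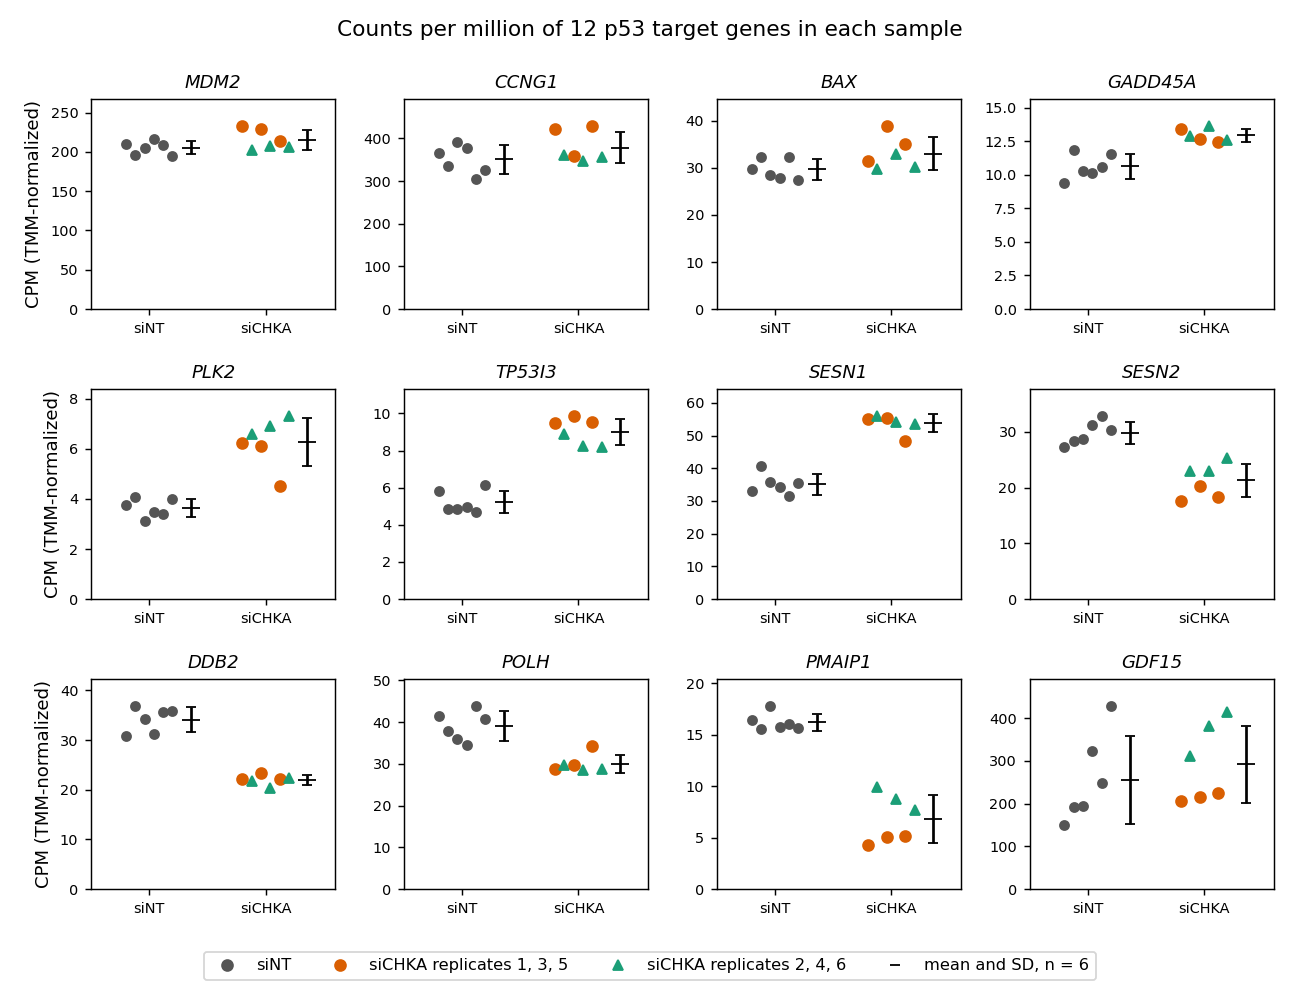
CPM of 12 p53 genes in every sample (vertical axes start at 0), with siNT in grey, siCHKA replicates 1, 3 and 5 as orange circles and 2, 4 and 6 as green triangles; the black mark is the mean with SD over 6 samples. GADD45A, PLK2, TP53I3 and SESN1 lie above, and DDB2, POLH, SESN2 and PMAIP1 below, every siNT sample, while MDM2, CCNG1, BAX and GDF15 overlap.

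Of the 10 death genes 4 rose, 3 fell and 3 were not called. These shares were near those of all tested genes (32.1% rose and 30.1% fell). PMAIP1, which encodes the BH3-only protein NOXA, had the largest change of all 32 genes. It was at 15.6 to 17.8 CPM (median 15.9) after siNT, at 7.74 to 9.96 CPM in siCHKA replicates 2, 4 and 6 and at 4.30 to 5.16 CPM in replicates 1, 3 and 5. The lowest siNT sample was thus above every siCHKA sample (-1.23, SE 0.16, adjusted p = 3.82e-06), and the fall was -0.88 and -1.74 when the sets were fitted apart. The other BH3-only gene on the list, BBC3 (PUMA), was at 2.78 to 4.28 CPM (median 3.17) after siNT and 2.66 to 3.87 CPM (median 3.13) after siCHKA, with no detectable difference at this depth (-0.07, SE 0.14, adjusted p = 0.685). BAX, the pore-forming effector on mitochondria, was at 27.4 to 32.4 CPM (median 29.1) and 29.8 to 38.9 CPM (median 32.3), and the groups overlapped (0.15, SE 0.07, adjusted p = 0.0808). It passed the test with siCHKA replicates 1, 3 and 5 alone (0.24, adjusted p = 0.0130) and when siCHKA replicate 2 was left out.

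TP53I3 (PIG3), an oxidoreductase, rose the most among the death genes, from 4.71 to 6.13 CPM (median 4.92) after siNT to 8.17 to 9.84 CPM (median 9.17) after siCHKA, without overlap (0.80, SE 0.09, adjusted p = 7.62e-07). AEN, an apoptosis-enhancing nuclease and one of the promoters shown, fell from 54.6 to 62.2 CPM (median 56.2) to 40.0 to 47.8 CPM (median 43.1), also without overlap (-0.41, SE 0.05, adjusted p = 5.66e-06). The death receptors differed in level and in call. TNFRSF10B (DR5), a receptor for TRAIL, rose slightly from 204 ± 4.84 to 235 ± 10.7 CPM (SD, n = 6 each; 0.20, adjusted p = 0.000721), whereas FAS was at 5.22 ± 0.90 and 5.43 ± 0.81 CPM and was not called (0.05, adjusted p = 0.772). CYFIP2 (0.32) and PHLDA3, an inhibitor of AKT (0.31), also rose, but neither passed the test with siCHKA replicates 2, 4 and 6 alone (adjusted p = 0.0767 and 0.116). TP53INP1, a p53 cofactor in cell death, fell by 0.31 on the log2 scale (adjusted p = 0.00116), with a slight overlap between the groups. It was not called with replicates 1 to 3 of both groups (-0.23, adjusted p = 0.082).

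Of the 4 repair genes 2 fell and none rose in the fit of all samples, against 30.1% and 32.1% of all tested genes. DDB2, which recognizes ultraviolet lesions for nucleotide excision repair and whose promoter held the exact response element, was at 30.9 to 36.8 CPM (median 34.9) after siNT and 20.3 to 23.5 CPM (median 22.1) after siCHKA. All siCHKA samples were below all siNT samples, both sets of siCHKA samples included (-0.63, SE 0.06, adjusted p = 7.79e-08). POLH, the translesion polymerase eta, was at 34.6 to 43.7 CPM (median 39.3) and 28.6 to 34.3 CPM (median 29.2), with the highest siCHKA sample just under the lowest siNT sample (-0.38, SE 0.07, adjusted p = 8.92e-05). XPC, the other damage sensor of the list, was at 42.5 to 59.8 CPM (median 51.6) and 47.1 to 56.7 CPM (median 54.4), and the siCHKA range lay within that of siNT (0.02, SE 0.07, adjusted p = 0.811). RRM2B, the p53-inducible subunit of ribonucleotide reductase, was not called (0.11, adjusted p = 0.0848), but was higher with siCHKA replicates 1, 3 and 5 alone (0.20, adjusted p = 0.00804) and with replicates 1 to 3 of both groups (0.18, adjusted p = 0.0484).

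In the metabolism group 3 of 4 genes rose and 1 fell, against 32.1% and 30.1% of all tested genes. The 2 sestrins, stress proteins that restrain mTORC1, moved in opposite directions. SESN1 was at 31.7 to 40.8 CPM (median 34.8) after siNT and 48.3 to 55.9 CPM (median 54.6) after siCHKA (0.61, SE 0.06, adjusted p = 1.82e-07). SESN2 was at 27.3 to 32.8 CPM (median 29.5) after siNT and fell to 23.0 to 25.4 CPM in siCHKA replicates 2, 4 and 6 and 17.6 to 20.3 CPM in replicates 1, 3 and 5 (-0.48, SE 0.08, adjusted p = 1.01e-04). Neither sestrin overlapped between the groups. TIGAR, a phosphatase that lowers glycolytic flux, was at 24.9 to 27.5 CPM (median 25.6) after siNT and 26.9 to 33.5 CPM (median 29.0) after siCHKA (0.21, SE 0.06, adjusted p = 0.0101). FDXR, ferredoxin reductase, changed about as much (0.20, SE 0.07, adjusted p = 0.0120). Neither of these rises passed the test with siCHKA replicates 2, 4 and 6 alone (adjusted p = 0.204 and 0.122).

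Among the remaining 5 targets 2 fell, 1 rose and 2 were not called, where 30.1% of all tested genes fell and 32.1% rose. ZMAT3, an RNA-binding protein that acts in splicing downstream of p53, was at 38.9 to 49.3 CPM (median 44.1) after siNT and 24.7 to 30.3 CPM (median 26.4) after siCHKA (-0.73, SE 0.07, adjusted p = 1.64e-07). SUSD6, a membrane protein, was at 33.5 to 44.2 CPM (median 40.1) and 22.9 to 25.3 CPM (median 23.8), and neither gene overlapped between groups (-0.71, SE 0.07, adjusted p = 7.91e-08). SPATA18, which acts in mitochondrial quality control, was at 5.06 to 6.89 CPM (median 6.17) and 6.19 to 8.74 CPM (median 8.22), with overlap (0.33, SE 0.11, adjusted p = 0.0109), and was not called with siCHKA replicates 2, 4 and 6 alone (adjusted p = 0.133). TRIAP1 was not called (0.12, adjusted p = 0.0620).

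GDF15, a secreted stress cytokine, had the highest mean level per length in siNT cells and a wide spread. It was at 150 to 428 CPM (median 222) after siNT. In siCHKA replicates 1, 3 and 5 it was at 206 to 225 CPM and in replicates 2, 4 and 6 at 312 to 414 CPM. Both were within the siNT range, and GDF15 was not called (0.19, SE 0.23, adjusted p = 0.482). However, all of siNT replicates 1 to 3 were below siNT replicates 4 to 6, and every siCHKA sample lay above siNT replicates 1 to 3. With replicates 1 to 3 of both groups GDF15 was called higher (0.44, adjusted p = 0.0244). With replicates 4 to 6 of both groups it was not (0.019, adjusted p = 0.947). The order of levels in siNT cells was GDF15 at 213 ± 85.8 RPKM, CCNG1 at 143 ± 13.8, TRIAP1 at 53.5 ± 3.17, TNFRSF10B at 51.0 ± 1.21, BAX at 37.3 ± 2.73 and MDM2 at 27.4 ± 1.06 RPKM (SD, n = 6). GDF15 and CCNG1 overlapped between samples, as did TRIAP1 and TNFRSF10B. At the other end FAS (1.41 ± 0.24), SPATA18 (1.38 ± 0.15) and PLK2 (1.30 ± 0.13 RPKM) did not differ beyond their spread.

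Several targets are also known to be induced by ATF4 or CHOP, transcription factors of the integrated stress response. These were SESN2, GDF15, TNFRSF10B, PMAIP1 and BBC3, of which TNFRSF10B rose, SESN2 and PMAIP1 fell and 2 were not called (median -0.07). In PMAIP1 and SESN2 all of siCHKA replicates 1, 3 and 5 were below replicates 2, 4 and 6, as they were in GDF15. In TNFRSF10B and BBC3 the sets overlapped. Of all tested genes 22.9% were lower in this way. The 27 genes left after removing these 5 gave 9 that rose (33.3%), 8 that fell (29.6%) and a median of 0.07. Of all tested genes 32.1% rose and 30.1% fell.

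Calls were then compared between the 2 sets of siCHKA samples, each fitted against all 6 siNT samples. With replicates 1, 3 and 5 alone 14 of the 32 genes rose and 9 fell, where 30.0% of all genes tested in that fit rose and 29.3% fell. With replicates 2, 4 and 6 alone 5 rose and 11 fell, where 31.5% and 30.7% of all genes did, so that the falls were near the share of all genes in both fits. Of the 10 falls 9 were called in both fits, the exception being PPM1D. Of the 10 rises 5 were called in both, namely GADD45A, PLK2, TNFRSF10B, TP53I3 and SESN1. The difference between these counts was not tested. The shares of all tested genes that kept a call across these fits, or across the fits that follow, were not counted. The counts therefore cannot be called particular to the p53 genes. These fits share samples with each other and with the fit of all samples, and the sets come from the data. Agreement between the fits is therefore a description and not independent evidence, also for the fits that follow. When replicates 1 to 3 and replicates 4 to 6 of both groups were also fitted apart, PLK2, TP53I3 and SESN1 rose in all 4 fits and FBXO22, PMAIP1, AEN, DDB2, POLH, SESN2, ZMAT3 and SUSD6 fell in all 4.

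**Figure D3:**
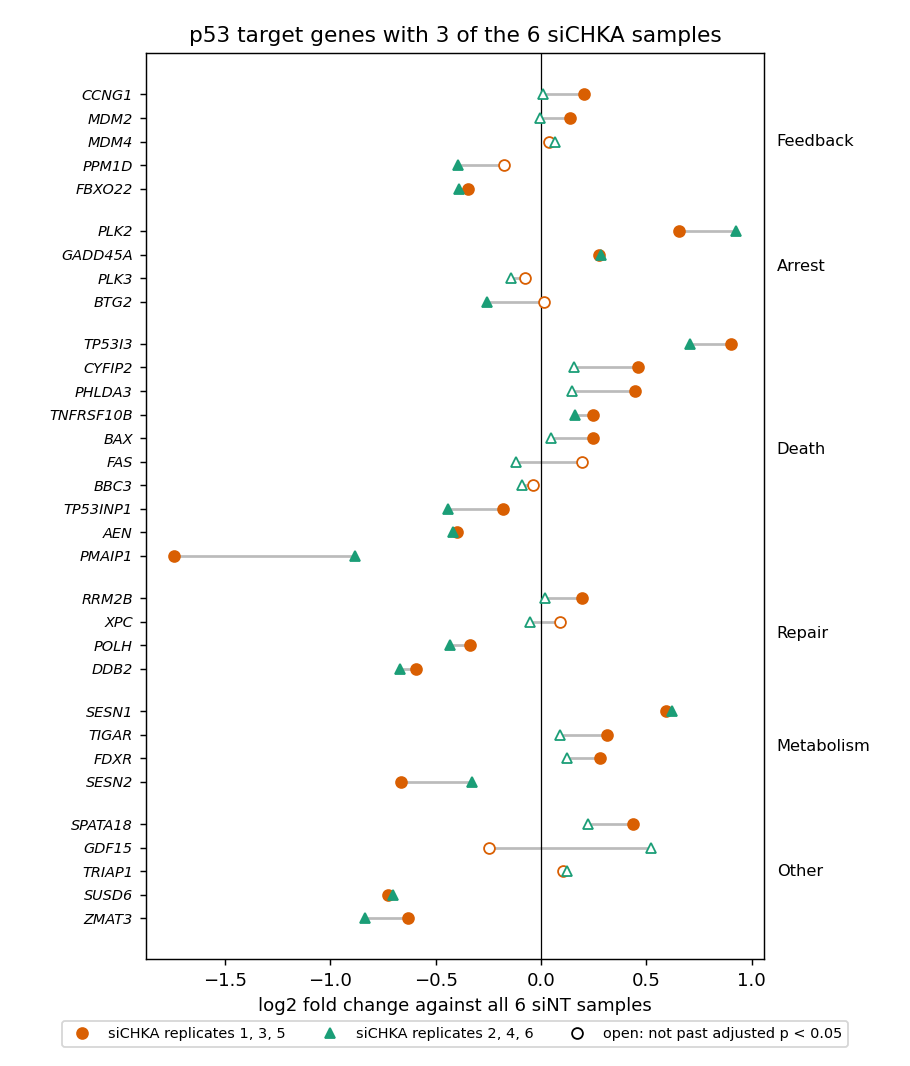
Log2 fold change of each p53 gene against all 6 siNT samples with siCHKA replicates 1, 3 and 5 only (orange circles) or 2, 4 and 6 only (green triangles); filled symbols passed adjusted p < 0.05. The symbols nearly coincide for GADD45A, AEN, SESN1 and SUSD6 and lie furthest apart for PMAIP1 (-1.74 and -0.88) and GDF15 (-0.25 and 0.52).

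Genes around the p53 list were read from the same fit. Among 24 genes that act on p53, 4 rose (16.7%) and 8 fell (33.3%), with a median of -0.03. Of all tested genes 32.1% rose and 30.1% fell. Of these 24 genes, 16 were higher in each of siCHKA replicates 1, 3 and 5 than in any of 2, 4 and 6, and 4 were lower. The shares of all tested genes were 24.6% and 22.9%. Of the kinases that phosphorylate p53 after DNA damage, ATM (0.06, adjusted p = 0.652), ATR (-0.11, adjusted p = 0.260) and PRKDC (-0.41, adjusted p = 0.0566) were not called. PRKDC was at 389 to 483 CPM in siNT replicates 1 to 3 and at 603 to 722 CPM in siNT replicates 4 to 6. It was at 438 to 568 CPM in siCHKA replicates 1, 3 and 5 and at 255 to 351 CPM in replicates 2, 4 and 6. CHEK1 fell from 112.6 ± 3.84 to 39.9 ± 2.63 CPM (-1.50, adjusted p = 2.07e-13) and CHEK2 from 65.6 ± 5.46 to 25.2 ± 3.64 CPM (-1.38, adjusted p = 3.86e-10; SD, n = 6 each). UBE4B, a ubiquitin ligase for p53, also fell (-0.77). COP1 (0.32) and TOPORS (0.19), both ubiquitin ligases for p53, and RPL11, a ribosomal protein that binds MDM2 (0.16), rose slightly. TOPORS was not called with siCHKA replicates 2, 4 and 6 alone (0.09), nor RPL11 with replicates 1, 3 and 5 alone (0.14). Among 65 further reported p53 targets, 61 passed the filter, 17 rose (27.9%) and 22 fell (36.1%), with a median of 0.00. These shares stand against the same 32.1% and 30.1% of all tested genes. The smallest p-values belonged to GASK1B (1.84), TNFRSF10D (0.71) and KITLG, the ligand of the receptor KIT (1.06), among the rises, and to STEAP3, a metalloreductase (-0.76), EI24 (-0.77) and ABHD4 (-0.93) among the falls.

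Cell cycle genes that are known to be lowered through the DREAM complex fell. All 16 decreased by at least 1.5-fold, as did 11.3% of all tested genes, with a median of -1.51. None of the 16 overlapped between the groups, where 40.6% of all tested genes did not. Cell cycle genes outside this list were not set beside it, so the fall cannot be called particular to these genes. CCNB2, a mitotic cyclin, fell from 189 ± 10.9 to 45.2 ± 3.06 CPM (-2.06, adjusted p = 2.31e-14), PLK1, a mitotic kinase, from 164.7 ± 8.71 to 57.3 ± 3.04 CPM (-1.52, adjusted p = 2.00e-13), and TOP2A, a topoisomerase, from 467 ± 28.6 to 164 ± 5.47 CPM (-1.51, adjusted p = 2.04e-13; SD, n = 6 each). In bulk RNA fewer cycling cells and less RNA per cell cannot be told apart.

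**Figure D4:**
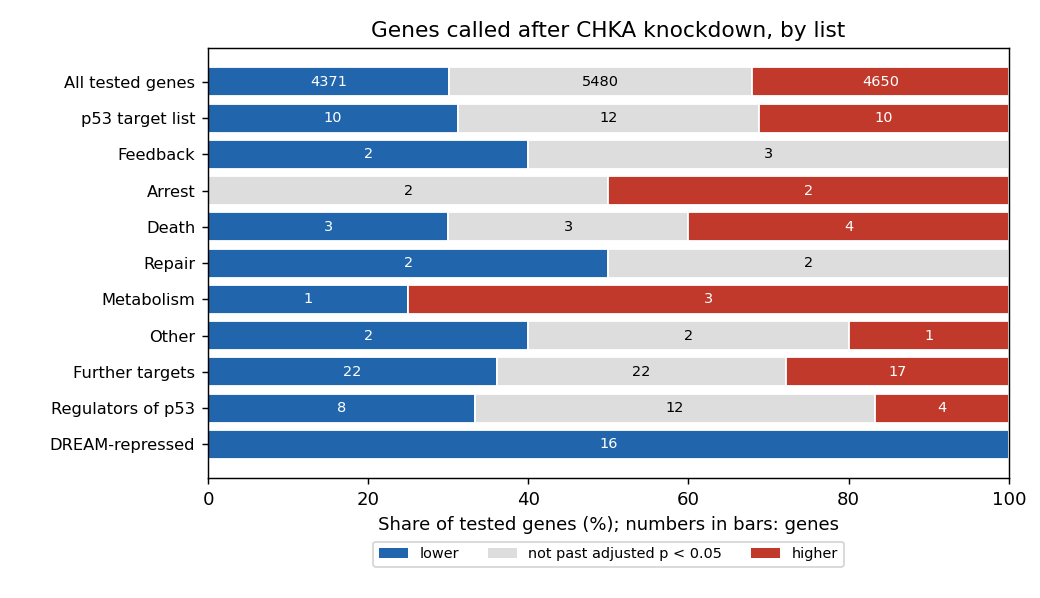
Share of tested genes that fell (blue), rose (red) or did not pass adjusted p < 0.05 (grey) for all 14501 genes, the 32 p53 genes, their 6 role groups and 3 further lists; the numbers in the bars count genes. The p53 list (10, 12 and 10 genes) has shares near those of all tested genes, whereas all 16 DREAM-repressed genes fell.

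Exons of 8 of the 32 genes (CYFIP2, FAS, FBXO22, MDM2, PLK3, POLH, TNFRSF10B and TP53I3) overlap those of a coding gene on the opposite strand in GENCODE release 44, and the use of strand in the counting is not given in the sources used here, so reads of either partner may be missing or misassigned in their values.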

How the data were processed

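Polyadenylated RNA of 6 siCHKA and 6 siNT samples was sequenced as single-end reads. Per the labels and the study's methods, the authors aligned reads to GRCh37 with TopHat 2.0.4 and counted them on Ensembl genes with HTSeq 0.5.3p9, and they deposited raw counts in 4 files per sample; reads with several alignments or on overlapping genes were not counted. The 4 files were summed, and genes were named through GENCODE release 44 (GRCh38 coordinates), which gave symbols for 82.8% of identifiers. Groups came from the labels. The p53 genes, their roles and the other lists were chosen with earlier results of these data known.

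Counts were tested by edgeR 4.0.16 under R 4.3.3 (TMM, filterByExpr, quasi-likelihood test of siCHKA against siNT, no covariates), with Benjamini-Hochberg adjusted p below 0.05 taken as changed, after the code was tested on simulated data. RPKM used the Ensembl canonical transcript. Standard errors were derived from each F statistic. Floors of 3 counts cover counting error only. Genes given with full values were up to 3 called genes per role by size of change, 10 set genes, and up to 3 genes per direction by p from each other list.

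Alternatives were RLE normalization, DESeq2 1.42.0, other filters, a replicate block, subsets of samples, 1 count file per sample and a 1.5-fold minimum. Same-numbered siCHKA and siNT samples deviated together in no regular way, so the numbers were not taken as pairs. Some results are not reported here.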

Additional observations from a re-analysis of the deposited data

Results flagged for a closer look

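Among 66 groups of 6 samples examined (the 32 p53 genes and CHKA in both groups), 3 held a sample that stood apart from the rest of its group, where about 3.3 are expected by chance. SESN1 in siCHKA replicate 5 was at 48.33 CPM with the nearest sample at 53.5 CPM, which is nearer to the siNT level. POLH in siCHKA replicate 5 was at 34.29 CPM with the nearest at 29.8 CPM. PHLDA3 in siNT replicate 6 was at 15.09 CPM with the nearest at 18.0 CPM.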

How the results depend on the processing

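CHKA stayed lower in every setting (log2 fold change -4.27 to -3.59). Over the 32 p53 genes and all settings, 654 of 704 values kept their direction and their side of the threshold, 19 lost the call, 15 gained one and 16 changed sign, none of them called in the fit of all samples. The changes of sign were MDM2 -0.0037, FAS -0.12 and XPC -0.051 without siCHKA replicates 1, 3 and 5; BTG2 0.012 and GDF15 -0.25 without replicates 2, 4 and 6; BBC3 0.19 and FAS -0.0080 with replicates 1 to 3 only; MDM4 -0.10, PLK3 0.026 and XPC -0.13 with replicates 4 to 6 only; PLK3 0.25 and FAS -0.074 with 1 count file per sample; and XPC -0.0074 with no expression filter. With single samples left out FAS ranged from -0.026 to 0.099 and XPC from -0.040 to 0.057. The count of p53 genes that rose was 5 without siCHKA replicates 1, 3 and 5 (31.5% of all genes) and 3 with replicates 4 to 6 only (24.0%), and 10 to 11 with single samples left out; BTG2 was called lower without siCHKA replicate 1 (-0.16), BAX higher without replicate 2 (0.18), TRIAP1 without 5 (0.13) and RRM2B without 6 (0.14). With a 1.5-fold minimum 3 rose and 4 fell. With no filter 8 rose (TIGAR and FDXR lost), against 14.8% of all genes, and with at least 10 counts in every sample 13 rose, against 33.5%, with 10 falls in both, against 14.5% and 31.5%. Medians moved to 0.13 for the list with replicates 1 to 3, to -0.10 for feedback and -0.26 for repair with replicates 4 to 6, to 0.29 for arrest with 1 count file, to -0.021 for death without siCHKA replicates 1, 3 and 5, and to 0.22 for death and -0.25 for the remaining targets without 2, 4 and 6. For regulators of p53 the median was -0.25 without replicates 1, 3 and 5 and -0.19 with replicates 4 to 6. In the latter fit 1 regulator rose, against 24.0% of all genes. At 1.5-fold 0 regulators rose and 3 fell, against 13.4% and 11.3% of all genes. For further targets the median was -0.056 without replicates 1, 3 and 5, -0.048 with replicates 4 to 6 and -0.052 to 0.018 with single samples left out. At 1.5-fold 11 further targets rose and 8 fell, against the same 13.4% and 11.3% of all genes. The cause of these shifts was not tested. The replicate number as a block left 10 rises and 10 falls and changed no call; deviations of same-numbered samples correlated at -0.40 to 0.32, and 1 of 6 correlated best with its own number. Low-count genes such as BBC3, PLK3 and FAS (at most 611 counts in a group) limit what could be detected.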

Other observations

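The 4 membrane receptors for TRAIL, all reported p53 targets, were looked at together after their values were seen. TNFRSF10A (DR4), which carries a death domain like TNFRSF10B, fell slightly from 32.3 ± 2.67 to 28.5 ± 2.38 CPM (log2 fold change -0.19, adjusted p = 0.0267 by edgeR; SD, n = 6 each). This call was lost without siCHKA replicate 2 (-0.15), 4 (-0.17) or 6 (-0.18), without siNT replicate 1 (-0.16) or 2 (-0.17), and with siCHKA replicates 1, 3 and 5 alone (-0.09). The decoy receptor TNFRSF10D (DcR2), which lacks a working death domain, rose from 76.8 ± 1.85 to 126 ± 7.42 CPM without overlap between the groups (0.71, adjusted p = 9.06e-10). The other decoy, TNFRSF10C (DcR1), rose from 1.20 ± 0.34 to 2.16 ± 0.33 CPM (0.87, adjusted p = 6.12e-04), with a total of 109 counts over the siNT samples and 242 over the siCHKA samples. These genes resemble each other in sequence and reads with several alignments were not counted, so their values are less sure.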
